A study of Mus musculus with 9 samples.

Results

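The mouse Fc gamma receptor genes Fcgr1, Fcgr3, Fcgr4 and Fcgr2b were followed with Fcer1g and Syk, which encode the shared signalling chain and the kinase of the activating receptors. These 6 genes were found by symbol among the 24411 genes of each count table, and all 6 passed the filter on low counts that left 11002 genes for testing. RNA was sequenced from 9 libraries of primary microglia of the ICR strain, the resident macrophages of the brain, 3 per treatment. The cells came from whole brains of 3-day-old pups, were shaken off mixed glia after 2 weeks in culture, and were treated 24 h after plating. The R848 group received R848 at 1 µM for 4 h, the IFN-α group received IFN-α at 100 U/ml for 4 h, and the combined group received both agents at those doses. R848, or resiquimod, is a small molecule that in mice activates TLR7, a receptor of endosomes. IFN-α belongs to the type I interferons. All groups share the strain, the age and the culture of newborn brain cells, and no allele or transgene is labelled. The control treatment that the study's design also lists is not analysed here, so every difference is between treatments and none is against untreated cells. Nothing in the labels ties the replicates to separate cultures or litters, and p-values therefore reflect the spread among the libraries alone, part of which may be technical.

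Fc gamma receptors sit on phagocytes and bind the constant region of immunoglobulin G, so that an antibody-coated particle can be recognised and taken up. FcγRI (Fcgr1, the high-affinity receptor), FcγRIII (Fcgr3) and FcγRIV (Fcgr4) activate the cell through the common γ chain, encoded by Fcer1g, whose immunoreceptor tyrosine-based activation motif (ITAM) docks the tyrosine kinase Syk. FcγRIIB (Fcgr2b) instead carries an inhibitory motif (ITIM) of its own, which recruits the lipid phosphatase SHIP1 (Inpp5d) and dampens ITAM signals. In the brain these receptors are carried mainly by microglia and other macrophages.

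Fcgr2b, Fcgr4, Fcgr3 and Fcer1g lie in that order within 275.7 kb of mouse chromosome 1, and the other genes are elsewhere. By GENCODE release M21 on GRCm38, the assembly also called mm10, Fcgr2b spans chr1:170958617-170976547 (minus strand), Fcgr4 chr1:171018920-171029761 (plus strand), Fcgr3 chr1:171051174-171064935 (minus strand) and Fcer1g chr1:171229572-171234365 (minus strand). The gap is 42.4 kb between Fcgr2b and Fcgr4, 21.4 kb between Fcgr4 and Fcgr3, and 164.6 kb between Fcgr3 and Fcer1g. Fcgr1 spans chr3:96282909-96293969 (minus strand) and Syk chr13:52583173-52648792 (plus strand). Fcgr3 and Fcgr2b share an exact run of 129 transcript bases, and 2.42% of the 101-base windows of Fcgr3 and 1.32% of those of Fcgr2b occur in the same sense in a transcript of another gene. On either strand the share is 2.42% for Fcgr3 and 4.23% for Fcgr2b, the latter including Gm38204, which overlaps Fcgr2b on the opposite strand. Reads from stretches that recur elsewhere in the genome could be lost to a counter that drops multi-mapping reads. Sequence shared with Gm38204 through the overlap lies at the same place, so the 4.23% overstates that part. No window of Fcgr1, Fcgr4, Fcer1g or Syk is shared. The longest run that any other pair of the 6 genes shares is 9 to 14 bases.

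Promoter sequences are shown for an activating receptor on each of 2 chromosomes and for the inhibitory receptor, because the activating pair was lowest with R848 and the inhibitory gene with IFN-α. Fcgr3 was lowest with R848 too, but its sequence is not shown. They are windows around RefSeq gene starts on GRCm38.p6, written 5′ to 3′ on the gene's strand, with capitals marking matches to the searched motifs. The Fcgr2b window lies inside the GENCODE span given above, so it does not cover the outermost GENCODE start of that gene. The Fcgr1 window is chr3:96293920-96294219 (minus strand), the Fcgr4 window chr1:171018676-171018975 (plus strand) and the Fcgr2b window chr1:170976022-170976321 (minus strand).
Fcgr1: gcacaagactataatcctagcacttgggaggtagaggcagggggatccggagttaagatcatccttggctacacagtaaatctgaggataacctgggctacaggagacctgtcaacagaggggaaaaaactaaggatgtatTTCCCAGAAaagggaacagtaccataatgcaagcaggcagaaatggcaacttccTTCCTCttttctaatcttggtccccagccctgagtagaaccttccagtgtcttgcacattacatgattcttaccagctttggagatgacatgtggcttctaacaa
Fcgr4: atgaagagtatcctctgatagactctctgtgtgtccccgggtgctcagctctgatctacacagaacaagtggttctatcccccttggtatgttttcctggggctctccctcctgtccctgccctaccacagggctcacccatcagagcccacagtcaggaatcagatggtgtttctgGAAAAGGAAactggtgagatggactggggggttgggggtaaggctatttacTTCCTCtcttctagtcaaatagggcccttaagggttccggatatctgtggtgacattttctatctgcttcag
Fcgr2b: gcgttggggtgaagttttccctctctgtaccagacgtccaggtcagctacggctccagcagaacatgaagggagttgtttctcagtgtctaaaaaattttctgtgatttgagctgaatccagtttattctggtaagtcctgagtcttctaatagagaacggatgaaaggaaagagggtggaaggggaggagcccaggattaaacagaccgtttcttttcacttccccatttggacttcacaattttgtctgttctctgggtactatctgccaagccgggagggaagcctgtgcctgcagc

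A set of 4 short motifs was searched on both strands of the windows of all 6 genes, each motif under its usual name. Fcgr1 holds TTCCCAGAA, a match to the gamma-activated site TTCNNNGAA, at -109 to -101 from the start, where the base before the start is -1. Of 32851 promoters of the same length, 8.3% hold such a match. Fcgr4 holds GAAAAGGAA, a match to GAAANNGAA, the core of the interferon-stimulated response element, at -73 to -65, and 8.56% of promoters hold that core. The core GAGGAA of the myeloid factor PU.1, which 28.3% of promoters hold, was found on the minus strand in Fcgr1 at -55 to -50, in Fcgr4 at -22 to -17 and in Fcgr3 at -6 to -1 or -15 to -10, by which of its 2 RefSeq starts is taken. Of the 2 RefSeq starts of Syk, 1 has it at -9 to -4. The windows of Fcgr2b and Fcer1g held none of the motifs, and no window of the 6 genes held GGGANNTTC of NF-κB, present in 3.94% of promoters. Fcgr3 and Syk held no match other than the PU.1 core. The windows of Fcgr2b, Fcgr3 and Syk lie inside the GENCODE spans of these genes. Sequence before their outermost GENCODE starts was therefore not searched. The matches do not overlap each other, and they describe the letters only.

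Gene counts per library ran from 2505941 to 6005578. Microglial transcripts were present in every group, and the summed level of 12 microglial and macrophage markers was 3110 to 3532 CPM (counts scaled to a common library total, with TMM factors from trimmed means) with R848, 4218 to 4463 with IFN-α and 3227 to 3694 with both. Transcripts of other cells were present too: 11 astrocyte markers summed to 1571 to 1774, 1216 to 1535 and 2513 to 3590 CPM in the same order. For 10 oligodendrocyte lineage markers the sums were 498 to 531, 642 to 757 and 560 to 606 CPM. Sums of 7 neuron markers were 137 to 152, 142 to 176 and 159 to 174 CPM. Those of 7 fibroblast and mural cell markers were 135 to 178, 106 to 142 and 147 to 248 CPM. Endothelial markers, 9 in number, summed to 17.4 to 21.1, 51.2 to 66.6 and 39.7 to 55.9 CPM. Of the 12 microglial markers 4 were called higher and 3 lower in the combination than in R848 (2 and 6 with library totals alone), 2 and 6 against IFN-α, and 2 and 5 for R848 against IFN-α. Of the 11 astrocyte markers 10 were called higher and 0 lower in the combination than in R848 (4 and 0 with library totals alone), 6 and 0 against IFN-α (4 and 2), and 2 and 4 for R848 against IFN-α (3 and 3). Of all genes 35.9%, 33.2% and 37.4% were called in these comparisons. Among other cells known to carry Fc receptors, 6 B cell markers summed to at most 5 counts in any library with Cd79a and Cr2 at 0, and 6 NK and T cell markers to at most 3. Of 7 mast cell and basophil markers, which summed to 8.64 to 17.4 CPM over the libraries, Cpa3, Cma1, Tpsb2, Fcer1a and Ms4a2 were at 0 throughout, and Kit, also known from other cells, averaged 11.3, 15.3 and 12.3 CPM with R848, IFN-α and both and was not called. Of 5 neutrophil markers, which summed to 5.07 to 16.5 CPM, S100a9, Mpo and Elane were at 0 throughout. S100a8 averaged 12.7, 5.66 and 8.97 CPM and was called higher in R848 than in IFN-α (1.16 ± 0.25, adjusted p = 2.87e-04), and Camp had 19, 1 and 5 counts per group. In bulk libraries, fewer cells of a type and less RNA per cell cannot be told apart, and the part of these marker levels in the receptor results was not tested.

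The activating receptor genes were lowest with R848 alone and higher in both groups with IFN-α. The inhibitory receptor Fcgr2b and the kinase Syk were instead lowest with IFN-α alone and highest with R848 alone. Fcgr1 stood at 48.8 times its R848 level when IFN-α was added, and Fcgr4 at 23.0 times. Fcgr3 stood at only 2.07 times, between its levels with the single agents. R848 added to IFN-α lowered Fcgr1 and Fcgr3 and raised Fcgr2b, Fcer1g and Syk. Fcer1g varied least, with group means between 310.4 and 453 CPM.

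**Figure D1:**
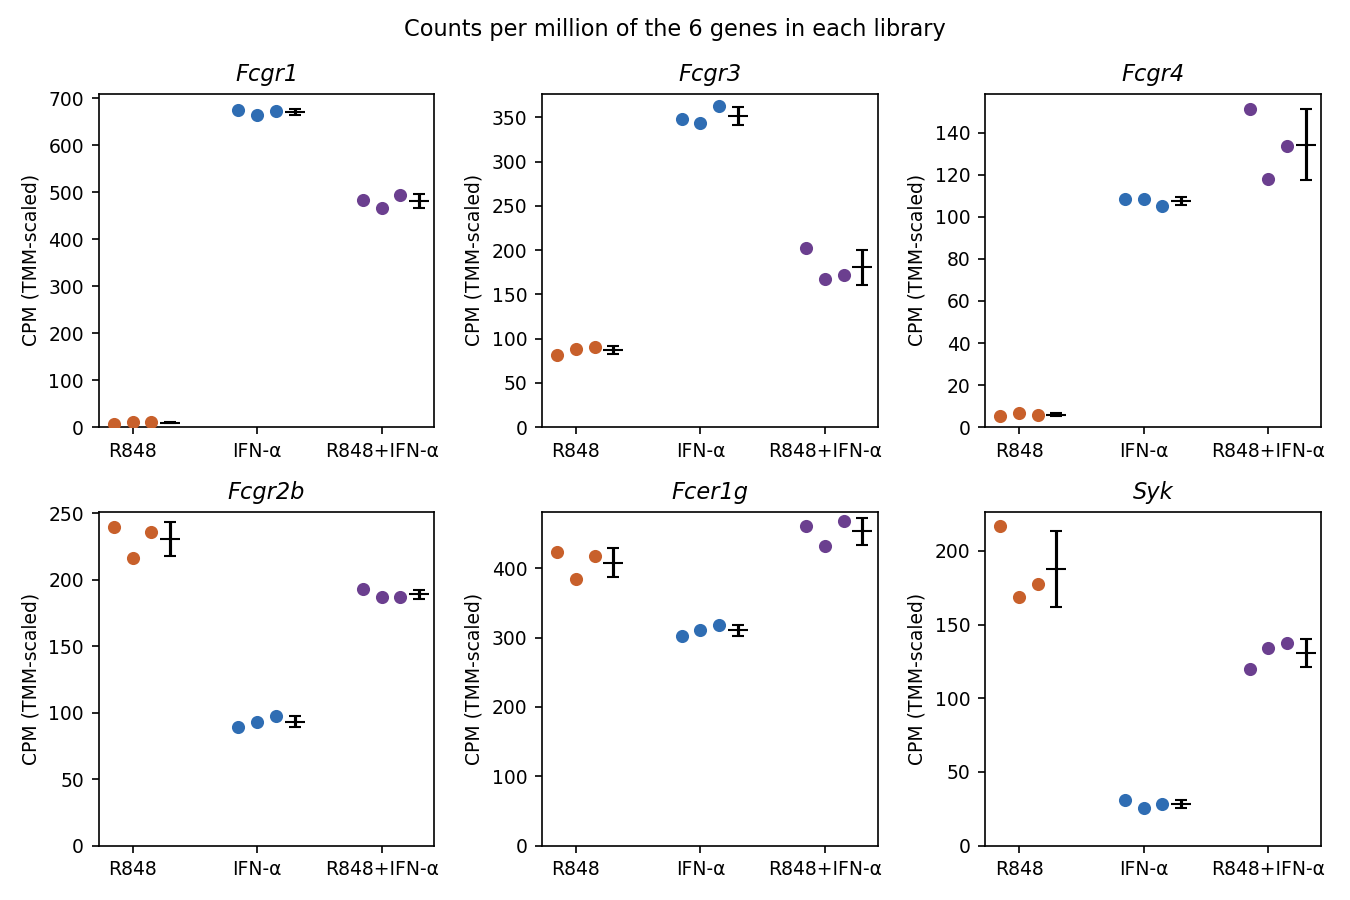
Level of each of the 6 genes in every library (points, CPM on TMM-scaled totals, separate linear axes from 0), with the group mean and SD (black, n = 3). Fcgr1, Fcgr3 and Fcgr4 are lowest with R848, and Fcgr2b, Fcer1g and Syk are lowest with IFN-α. The combined libraries lie between both single agents for Fcgr1, Fcgr3, Fcgr2b and Syk.

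Fcgr1 had 7.52, 11.4 and 10.7 CPM in the R848 libraries, from 26 to 36 counts each. With IFN-α it had 675, 663 and 673 CPM, and with both agents 483, 466 and 495 CPM. The 3 groups did not overlap, IFN-α being highest and R848 lowest. Its log2 fold change was 5.61 ± 0.12 (SE) for the combination against R848 (adjusted p = 1.5e-25) and -6.09 ± 0.12 for R848 against IFN-α (adjusted p = 2.72e-26). Of all genes tested, 0.445% and 0.354% had a larger absolute change in those comparisons. Against IFN-α the combination was lower by a smaller amount, -0.48 ± 0.085 (adjusted p = 3.98e-05), and 35.6% of genes had a larger change.

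Fcgr4, the receptor for the mouse IgG2 subclasses that lies between Fcgr2b and Fcgr3, had 5.21, 6.64 and 5.63 CPM with R848, from 18 to 21 counts. The IFN-α libraries held 108.4, 108.6 and 105 CPM, and the combined libraries 151, 118 and 134 CPM. Every combined library was above every IFN-α library, and all 6 were far above R848. The log2 fold change was 4.52 ± 0.16 for the combination against R848 (adjusted p = 8.04e-21) and -4.20 ± 0.16 for R848 against IFN-α (adjusted p = 8.75e-20). The step from IFN-α to the combination was 0.32 ± 0.11 (adjusted p = 0.0177). That call ended without IFN-α replicate 3 (0.31, adjusted p = 0.0675), without combined replicate 1 (0.24, adjusted p = 0.134) or 3 (0.33, adjusted p = 0.052), with upper-quartile factors (0.24, adjusted p = 0.0759) and with library totals alone (0.016, adjusted p = 0.937).

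Fcgr3, the low-affinity activating receptor, changed less. It had 81.6, 88.6 and 90.9 CPM with R848, 348, 344 and 363 with IFN-α, and 203, 167 and 172 with both. The combined group sat between the single agents with no overlap on either side. Fcgr3 rose by 1.05 ± 0.099 on the log2 scale when IFN-α was added to R848 (adjusted p = 3.83e-10) and had a log2 fold change of -0.96 ± 0.093 when R848 was added to IFN-α (adjusted p = 8.62e-10). R848 alone stood -2.01 ± 0.098 from IFN-α alone (adjusted p = 5.11e-17).

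Fcgr2b, the inhibitory receptor, was lowest with IFN-α. It had 240, 216 and 236 CPM with R848, 89.1, 93.1 and 97.3 with IFN-α, and 193, 187 and 187 with both. R848 libraries were highest and IFN-α libraries lowest, without overlap. The log2 fold change was 1.31 ± 0.095 for R848 against IFN-α (adjusted p = 7.64e-13) and 1.02 ± 0.096 for the combination against IFN-α (adjusted p = 4.65e-10). Adding IFN-α to R848 gave -0.29 ± 0.089 (adjusted p = 0.0119), a small step that 57.3% of tested genes exceeded.

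Fcer1g, the common γ chain that assembles with FcγRI, FcγRIII and FcγRIV and with other receptors, had 423, 385 and 417 CPM with R848, 302, 311 and 318 with IFN-α, and 461, 431 and 468 with both. The IFN-α libraries were lowest, and the combined libraries lay just above the R848 libraries without overlapping them. Fcer1g was higher by 0.40 ± 0.083 in R848 than in IFN-α (adjusted p = 2.51e-04) and by 0.55 ± 0.083 in the combination than in IFN-α (adjusted p = 3.64e-06), both on the log2 scale. The latter call ended with library totals alone (0.23, adjusted p = 0.133). The combination against R848 did not pass (0.15 ± 0.082, adjusted p = 0.151), passed without R848 replicate 1 (0.19, adjusted p = 0.0429), and was -0.24 with library totals alone (adjusted p = 0.109).

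Syk, the kinase docked by the phosphorylated ITAM, had 217, 169 and 178 CPM with R848, 31.0, 25.7 and 28.3 with IFN-α, and 119.5, 134 and 137 with both. Its order was that of Fcgr2b, R848 above the combination above IFN-α, and the groups did not overlap. The log2 fold change was 2.73 ± 0.12 for R848 against IFN-α (adjusted p = 1.07e-17) and 2.21 ± 0.13 for the combination against IFN-α (adjusted p = 7.41e-15). It was -0.52 ± 0.10 for the combination against R848 (adjusted p = 1.71e-04). For the step on IFN-α, 2.71% of tested genes had a larger change than Syk.

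**Figure D2:**
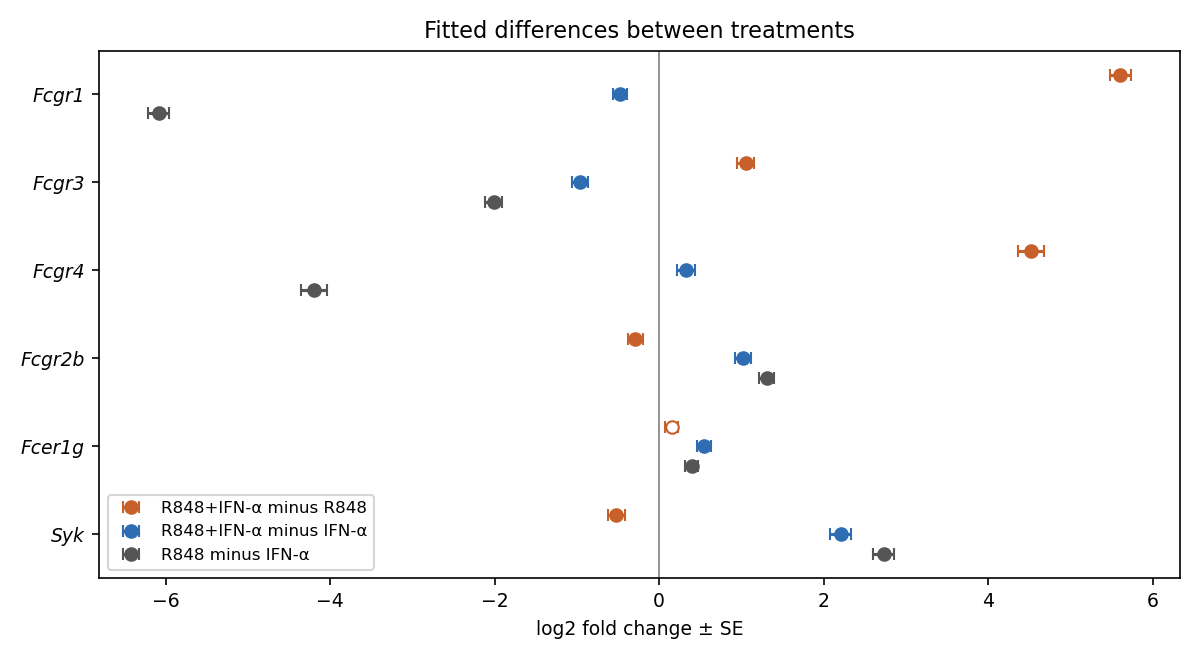
Fitted log2 fold change ± SE of the 6 genes for the combination against R848 (orange), the combination against IFN-α (blue) and R848 against IFN-α (grey). Filled points passed an adjusted p of 0.05 and the open point did not; Fcgr1 spans the widest range, from -6.09 to 5.61.

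Counted together, 3 of the 6 genes were higher and 2 lower in the combination than in R848, where 35.9% of all tested genes were called, 19.2% higher and 16.7% lower. Against IFN-α 4 were higher and 2 lower in the combination, beside 33.2% of all genes, 18.5% higher and 14.7% lower. With R848 against IFN-α 3 were higher and 3 lower, beside 37.4% of all genes, 18.4% higher and 19% lower. On TMM-scaled CPM, the libraries of both groups did not overlap for any of the 6 in each comparison, which held for 45%, 46.2% and 46.4% of tested genes. Overlap depends on that scaling. With library totals alone the log2 fold change of Fcgr4 was 0.016 for the combination against IFN-α, and that of Fcer1g -0.24 against R848. The median log2 fold change over the 6 was 0.60, 0.44 and -0.81 in those comparisons, against -0.033, -0.0088 and 0.024 over all genes. These comparisons share libraries pairwise, so their counts are not independent of each other.

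Only Fcgr4 was called outside the range of both single agents, above the higher of them by 0.32 (adjusted p = 0.0466), in a test that called 10.1% of all genes, 7.33% above and 2.82% below both single agents. The call ended in 13 of 20 alternatives, among them the DESeq2 test. Fcer1g did not pass that test (0.15, adjusted p = 0.341), and the other 4 genes lay between the single agents. Isg15 and Tnf, given as reference genes of each agent, both exceeded the single agents: Isg15, a ubiquitin-like interferon target, averaged 22.2, 624 and 1094 CPM with R848, IFN-α and both, and the cytokine Tnf 4649, 83.6 and 8775 CPM. The 3 activating receptors shared with Isg15 the lowest level in R848, and Fcgr2b, Fcer1g and Syk shared with Tnf the lowest level in IFN-α.

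Scaling moved these values together. With library totals alone, the median of all genes was -0.42 for the combination against R848 and -0.32 for the combination against IFN-α, and 19.05% and 21.7% of calls were higher, beside 53.5% and 55.7% with TMM. With upper-quartile factors the median was -0.17 and 37.5% of calls were higher for the combination against R848, and 44.8% against IFN-α. For the combination against R848, library totals alone moved Fcgr3 from 1.05 to 0.66 (adjusted p = 1.18e-04), Fcgr2b from -0.29 to -0.68 (adjusted p = 3.22e-05) and Syk from -0.52 to -0.91 (adjusted p = 1.06e-07). For the combination against IFN-α they moved Fcgr1 from -0.48 to -0.79 (adjusted p = 2.58e-06). A scaling factor shifts all genes of a library alike, so it bears on the size of each difference and not on the order of the genes within a comparison. For small differences it bears on the direction or the call too, as given above for Fcer1g and Fcgr4.

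The make-up of the receptor pool within a library does not depend on scaling between libraries. Fcgr2b held 71.8%, 67.0% and 68.7% of all Fc gamma receptor counts in the R848 libraries, 7.30%, 7.70% and 7.86% in the IFN-α libraries, and 18.7%, 19.9% and 19.0% in the combined libraries. The groups were far apart beside counting error: exact 95% Clopper-Pearson intervals reached from 64.0% to 74.3% over the R848 libraries, 6.41% to 8.75% over IFN-α and 17.3% to 21.7% over the combination, and cover counting error only. Per count of Fcgr2b there were 0.447 ± 0.0503 activating receptor counts (SD, n = 3) with R848, 12.1 ± 0.507 with IFN-α and 4.21 ± 0.168 with both. Summed over the 4 receptors, the level was 333 ± 10.2 CPM, 1223 ± 14.6 CPM and 985 ± 46.4 CPM in that order.

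**Figure D3:**
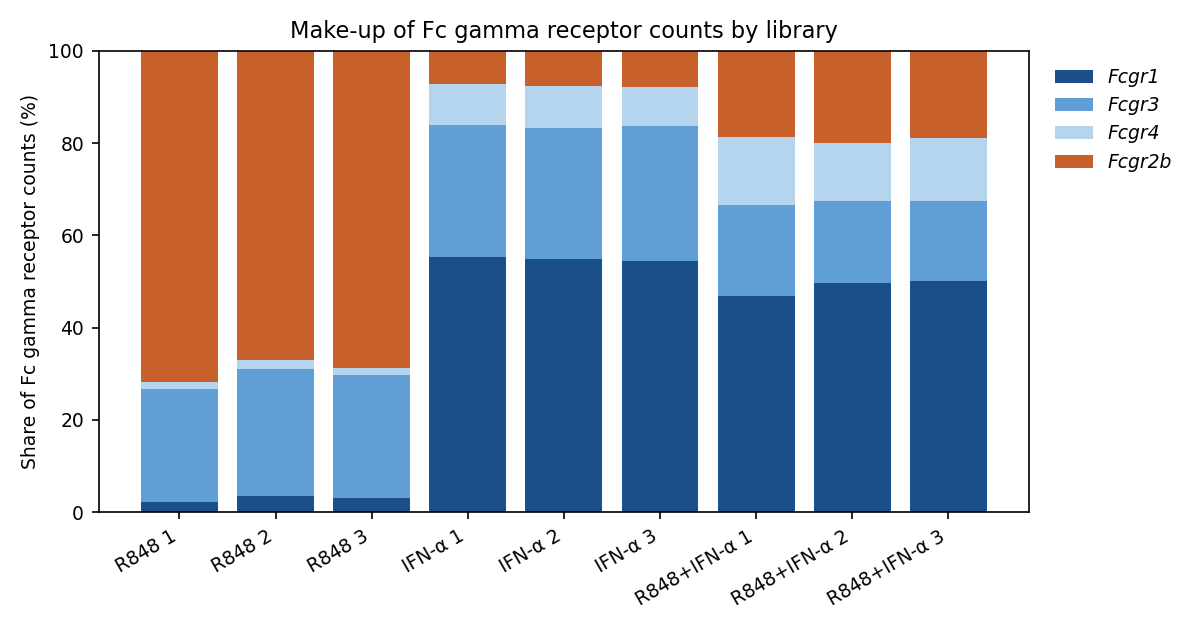
Share of the summed Fcgr1, Fcgr3, Fcgr4 and Fcgr2b counts held by each gene in every library (stacked bars, percent, not corrected for gene length). Fcgr2b holds 67.0% to 71.8% in R848 libraries and 7.30% to 7.86% in IFN-α libraries, and Fcgr1 holds the largest share, 46.9% to 55.3%, in all libraries with IFN-α.

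Among the activating receptors the mix changed as well. Fcgr1 held 2.96 ± 0.65% of receptor counts with R848, 54.8 ± 0.486% with IFN-α and 48.9 ± 1.74% with both. The Fcgr3 share was 26.1 ± 1.54%, 28.8 ± 0.476% and 18.3 ± 1.22%, and was lowest in the combination. That of Fcgr4 was 1.75 ± 0.268%, 8.79 ± 0.254% and 13.6 ± 1.06%, and was highest there. The libraries of different groups did not overlap in any of these shares. The Fcgr3 shares with R848 and IFN-α came closest, 24.4% to 27.5% against 28.5% to 29.3%, and per kb of exon union their order turned, to 50.9 ± 1.48% with R848 and 36.0 ± 0.639% with IFN-α, while per kb of the median coding transcript it did not (29.1% and 39.6%).

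The ratio of the signalling genes to the activating receptors differed between the treatments. Its denominator, the summed level of Fcgr1, Fcgr3 and Fcgr4, was 103 ± 7.27 CPM with R848, 1129 ± 12.4 with IFN-α and 796 ± 43.4 with both. Per activating receptor count, Fcer1g had 3.99 ± 0.446 counts with R848, 0.275 ± 0.00653 with IFN-α and 0.57 ± 0.0175 with both. Syk had 1.85 ± 0.393, 0.0251 ± 0.00218 and 0.164 ± 0.0191 counts per activating receptor count. For both ratios R848 was highest and IFN-α lowest in every library, with no overlap.

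Levels of different genes can be set side by side only per length. As CPM per kb of exon union, Fcer1g was highest in each group, at 467 ± 23.5 with R848, 355 ± 8.95 with IFN-α and 519 ± 22.1 with both. With R848 the order below it was Fcgr3 (50.1 ± 2.79 CPM per kb), Fcgr2b (39.8 ± 2.18), Syk (20.0 ± 2.73), Fcgr4 (4.64 ± 0.588) and Fcgr1 (3.81 ± 0.793), the last pair within their spread of each other. With IFN-α it was Fcgr1 (259 ± 2.34 CPM per kb), Fcgr3 (203 ± 5.71), Fcgr4 (85.5 ± 1.5), Fcgr2b (16.1 ± 0.714) and Syk (3.03 ± 0.281). With both, Fcgr1 (186 ± 5.66 CPM per kb) led Fcgr4 (107 ± 13.3) and Fcgr3 (104 ± 11.2), which were within their spread of each other, then Fcgr2b (32.6 ± 0.585) and Syk (13.9 ± 1.02). Per kb, the Fcgr2b share of the receptor pool was 40.5 ± 2.67% with R848, 2.86 ± 0.112% with IFN-α and 7.61 ± 0.37% with both, so its size depends on the length used. Per kb of the median coding transcript it was 67.1%, 9.13% and 22.5%, which keeps the order of the groups. The order of the genes depends on the length too. Per kb of that transcript Fcer1g was again highest in each group (601.6, 457 and 668 CPM per kb), but Fcgr2b (152) came above Fcgr3 (65.7) with R848. With IFN-α Fcgr3 (266 ± 7.49 CPM per kb) and Fcgr1 (259 ± 2.34) were within their spread of each other. With both agents Fcgr1 (186) was followed by Fcgr3 (136 ± 14.7), Fcgr2b (124 ± 2.23) and Fcgr4 (107 ± 13.3).

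The genes nearest in pattern differed between the receptors. Likeness was the root mean square difference of gene-centred log2 CPM over all 9 libraries, among 9461 tested genes with a mean of at least 5 CPM, which share the libraries and their depth. Nearest to Fcgr1 were Oas3 (0.187), a sensor of double-stranded RNA, then Ifit3, Usp18, Phf11b and Ifit3b (0.323). Fcgr4 lay nearest to the guanylate-binding protein gene Gbp9 (0.133), then Irgm1, Herc6, Slfn5 and Gbp8 (0.173). For Fcgr3 the list was Tsc22d3 (0.129), a glucocorticoid-induced leucine zipper, then Tlr8, Tec, Arhgap15 and Nrp1 (0.141). Nearest to Fcgr2b were Pisd (0.0798), Hmgb2, Esd, Psma6 and Ube2f (0.11), and nearest to Fcer1g were Rnf145 (0.0636), Msn, Slc20a1, Slc3a2 and Cln3 (0.0849). The list for Syk was Kcna3 (0.148), a potassium channel gene, then Txnrd1, Pik3r5, Arap3 and Vasp (0.193). Between the 6 genes themselves the closest pair was Fcgr2b and Fcer1g (0.372), followed by Fcgr2b and Syk (0.623) and Fcgr1 and Fcgr4 (0.809), and the farthest was Fcgr1 and Syk (3.66). The median distance to all candidate genes was 2.76 for Fcgr1, 2.04 for Fcgr4, 0.885 for Fcgr3, 0.627 for Fcgr2b, 0.393 for Fcer1g and 1.20 for Syk. Fcgr1 and Fcgr4 were thus nearer to each other than to most candidates. The distance of Fcgr2b to Syk was close to the Fcgr2b median, though below that of Syk. That of Fcgr2b to Fcer1g was close to the Fcer1g median, though below that of Fcgr2b.

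**Figure D4:**
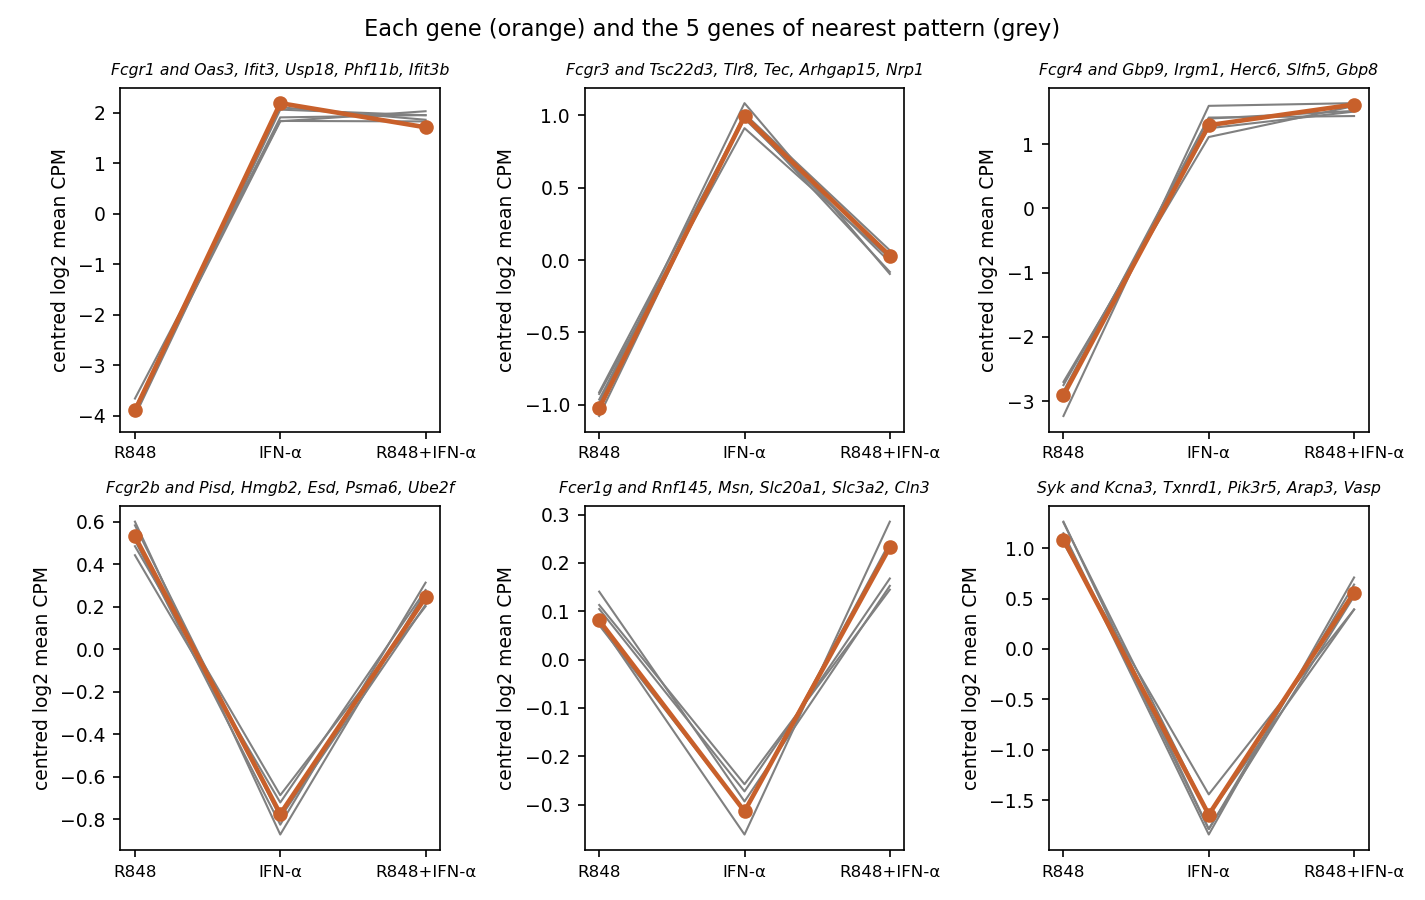
Log2 of the group mean CPM, centred per gene, for each of the 6 genes (orange) and the 5 genes nearest to it in pattern over the 9 libraries (grey, named above each panel, separate axes). Fcgr1, Fcgr4 and their nearest genes are lowest with R848, and Fcgr2b, Fcer1g, Syk and theirs are lowest with IFN-α.

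Of 13 other receptors of immunoglobulins listed, 4 passed the filter on low counts. Pigr, Fcer1a and Ms4a2 were at 0 in every library, Fcrl1 had 7, 13 and 5 counts per group with R848, IFN-α and both, and Fcrl5, Fcrla, Fcmr, Fcamr and Fcer2a had at most 2 counts in any group. Trim21, a cytosolic receptor for antibody, averaged 13.5 ± 1.69, 56.8 ± 5.45 and 80.2 ± 4.97 CPM with R848, IFN-α and both, and rose by 2.57 ± 0.15 when IFN-α was added to R848 (adjusted p = 3.01e-15). It was thus lowest in R848, as Fcgr1 and Fcgr4 were. Fcrls, an Fc receptor-like gene of mouse microglia, averaged 141 ± 8.18, 199 ± 25.4 and 151 ± 8.41 CPM, and its log2 fold change of -0.40 ± 0.10 for the combination against IFN-α (adjusted p = 0.0026) did not pass without IFN-α replicate 3 (-0.29). The neonatal Fc receptor gene Fcgrt, whose product recycles immunoglobulin G, had 27.3 ± 0.932, 34.3 ± 3.94 and 27.0 ± 2.27 CPM and passed no comparison.

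Genes that act beside Syk changed in both directions. Of 28 tested members of the ITAM signalling list, 9 were higher and 9 lower in the combination than in R848 (5 and 12 with library totals alone), 10 and 7 against IFN-α (8 and 10 with library totals alone), and 12 and 6 for R848 against IFN-α. Their medians were 0.13, 0.030 and 0.25, beside -0.033, -0.0088 and 0.024 over all genes, of which 35.9%, 33.2% and 37.4% were called. Src, a kinase that phosphorylates ITAMs, averaged 232 ± 34.7 CPM with R848, 42.5 ± 4.50 with IFN-α and 222 ± 25.03 with both. The adaptor SLP-76 (Lcp2), a Syk substrate, averaged 312 ± 20.0, 81.4 ± 15.1 and 462 ± 50.8 CPM, and Malt1, of the CARD9-BCL10-MALT1 complex, 623 ± 48.5, 17.8 ± 2.71 and 710 ± 11.8. Like Syk, these genes were lowest with IFN-α, and each was called in both comparisons with IFN-α alone. Other members were lowest with R848. Pik3cd, a subunit of phosphoinositide 3-kinase, averaged 3.93 ± 2.56, 17.7 ± 4.29 and 11.5 ± 3.52 CPM, with a log2 fold change of -2.13 ± 0.32 for R848 against IFN-α (adjusted p = 2.76e-06) and 1.59 ± 0.33 for the combination against R848 (adjusted p = 3.69e-04). The Src family kinase gene Lck averaged 2.11 ± 0.399, 7.64 ± 1.64 and 8.60 ± 2.35 CPM and was called in the same comparisons (-1.84 and 1.98, adjusted p = 1.05e-04 and 3.35e-05). Card9 had the lowest mean in the combination, 5.52 ± 3.16 CPM against 18.4 ± 2.06 with R848 and 12.2 ± 2.03 with IFN-α, and was called lower than both (log2 fold changes of -1.89 ± 0.27 and -1.29 ± 0.30, adjusted p = 1.46e-06 and 9.6e-04).

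On the inhibitory side, the gene of SHIP1 and that of its receptor differed in order. Inpp5d averaged 71.5 ± 10.1 CPM with R848, 266 ± 10.8 with IFN-α and 58.9 ± 4.67 with both, so it was highest where Fcgr2b was lowest. Its log2 fold change was -1.90 ± 0.11 for R848 against IFN-α (adjusted p = 1.66e-15) and -2.18 ± 0.11 for the combination against IFN-α (adjusted p = 2.4e-16). Other members were, like Fcgr2b, lowest with IFN-α: the ITIM receptor gene Cd72 averaged 63.4 ± 9.5, 8.92 ± 3.21 and 70.4 ± 6.84 CPM, and Pilra, another, 53.2 ± 6.34, 5.81 ± 0.672 and 27.5 ± 1.22. Sla, an adaptor that dampens receptor signalling, averaged 140 ± 9.97, 4.76 ± 1.15 and 17.4 ± 4.04 CPM. Sirpa, Pirb and Pag1 instead had their lowest means in the combination. Sirpa averaged 1065 ± 124, 760 ± 60.3 and 533 ± 49.0 CPM with R848, IFN-α and both. Pirb averaged 30.5 ± 4.00, 15.6 ± 1.53 and 12.5 ± 1.14 CPM, and Pag1 39.4 ± 4.91, 40.3 ± 2.02 and 14.5 ± 2.10. Of the 20 list members tested, 11 were higher and 6 lower in R848 than in IFN-α (median 0.47), 7 and 6 in the combination than in IFN-α (median 0.055), and 6 and 8 in the combination than in R848 (median -0.22; 2 and 11 with library totals alone). Of all genes 37.4%, 33.2% and 35.9% were called in these comparisons, with medians of 0.024, -0.0088 and -0.033.

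Another list held ITAM adaptors, receptors that pair with them, and related receptors and adaptors. Of 13 tested, 7 were higher and 4 lower in R848 than in IFN-α (median 0.49), 6 and 5 in the combination than in IFN-α (median -0.22), and 1 and 7 in the combination than in R848 (median -0.38; 1 and 11 with library totals alone), beside 37.4%, 33.2% and 35.9% of all genes called. Clec4e, which encodes Mincle and signals through the same γ chain, averaged 1198 ± 110 CPM with R848, 12.1 ± 1.41 with IFN-α and 596 ± 44.0 with both. Trem1 averaged 37.3 ± 1.52, 1.18 ± 0.42 and 12.4 ± 1.69 CPM and Clec5a 220 ± 9.22, 21.6 ± 3.54 and 75.6 ± 9.91, and both pair with the adaptor DAP12. Tyrobp, which encodes DAP12, had 302 ± 29.7, 360 ± 31.1 and 233 ± 13.1 CPM and, unlike Fcer1g, was lowest in the combination. Some receptors were instead highest with IFN-α. Klrk1, an activating receptor gene, had 1 count over the R848 libraries and averages of 51.5 ± 4.38 CPM with IFN-α and 22.3 ± 2.13 with both. Trem2 averaged 223 ± 23.6, 407 ± 49.9 and 214 ± 20.7 CPM with R848, IFN-α and both.

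Genes of antibody-coated particle uptake and the oxidative burst were all tested, 21 of 21. In the combination 12 were higher and 3 lower than with IFN-α (median 0.31; 6 and 5 with library totals alone), and 6 were higher and 6 lower than with R848 (median 0.031; 1 and 12 with library totals alone). For R848 against IFN-α 9 were higher and 2 lower (median 0.30). Of all genes 33.2%, 35.9% and 37.4% were called in these comparisons. Cybb, the catalytic subunit of the phagocyte oxidase, averaged 1994 ± 135, 875 ± 41.6 and 1921 ± 67.6 CPM with R848, IFN-α and both. The scavenger receptor gene Msr1 averaged 96.0 ± 10.3, 80.7 ± 13.4 and 216 ± 18.3 CPM, and Coro1a, which encodes an actin-binding protein of phagosomes, 131 ± 6.70, 93.5 ± 4.61 and 206 ± 13.6.

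**Figure D5:**
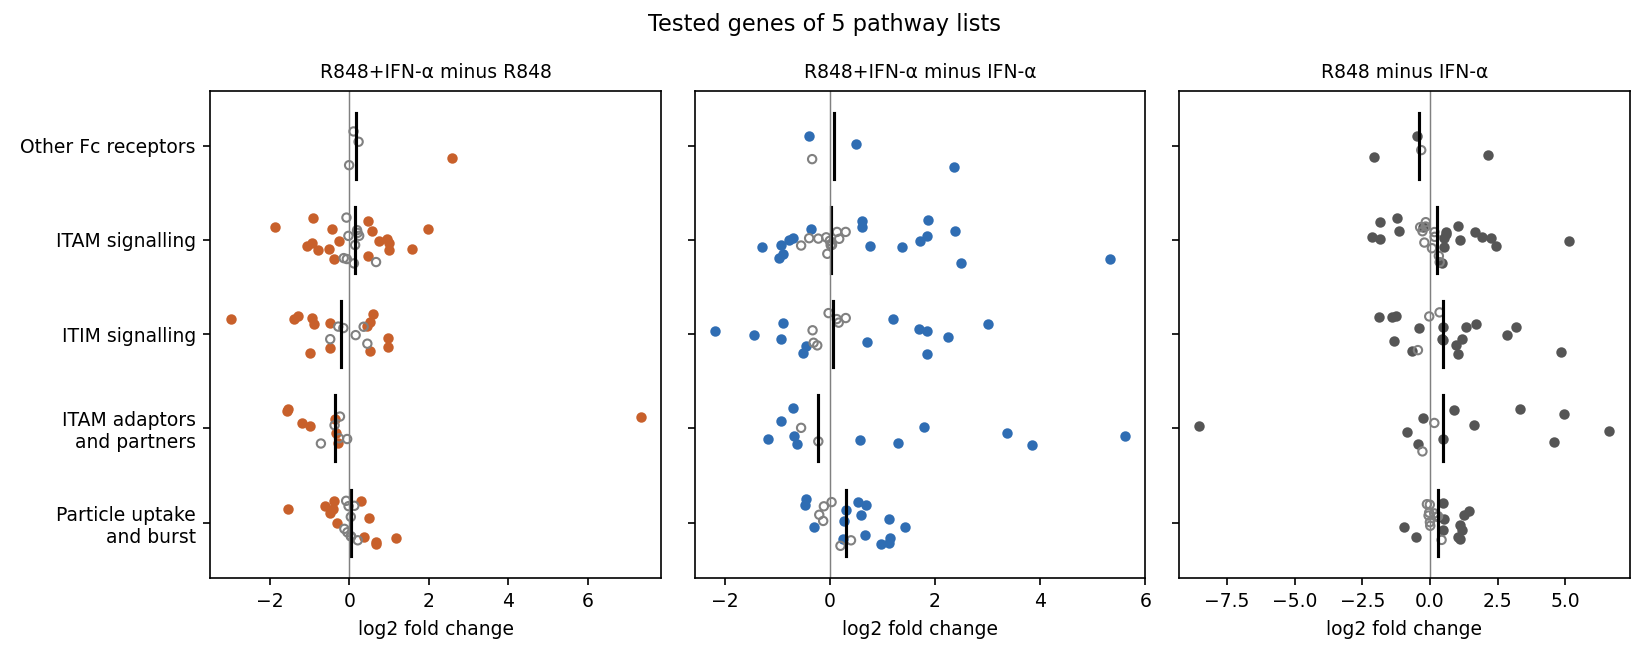
Log2 fold change of every tested gene in 5 lists related to the Fc gamma receptors, for each comparison (filled points passed an adjusted p of 0.05, open points did not, black bars are list medians). Every list holds genes above and below 0 in every comparison, with medians from -0.41 to 0.49.

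Genes that neighbour the 6 on the chromosomes changed in both directions. Within 0.2 Mb of the 6 genes 29 other genes were tested, of which 6 were higher and 2 lower in the combination than in R848, 5 and 7 than in IFN-α, and 2 higher and 7 lower in R848 than in IFN-α, beside 35.9%, 33.2% and 37.4% of all genes called in either direction. Fcrlb, an Fc receptor-like gene 45.7 kb from Fcgr2b, averaged 9.46 ± 2.08, 2.12 ± 0.698 and 11.1 ± 1.20 CPM with R848, IFN-α and both, and was lowest with IFN-α, as Fcgr2b was. Adamts4, a protease gene 16.1 kb from Fcer1g, averaged 75.0, 5.07 and 50.9 CPM, with a log2 fold change of 3.85 ± 0.25 for R848 against IFN-α (adjusted p = 1.11e-12). Beside Fcgr1, the histone gene Hist2h2bb, whose family holds near-identical copies and is therefore uncertain, averaged 20.1, 34.7 and 21.6 CPM.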

How the data were processed

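Per the labels' protocols, ribosomal RNA was removed and directional libraries were sequenced as paired ends of 101 cycles. The authors deposited whole-number counts per gene from STAR 2.5.1 for 9 libraries, after CASAVA 1.8.2 and Trimmomatic 0.33, on mm10, per the submitters' processing notes, the annotation being not given in the sources used here. Reverse-strand counts were used, since forward-strand counts made up 1.09% to 1.50% of both strands. Libraries of a group differed beyond sampling noise in every pair (chi-square per degree of freedom 1.92 to 6.27 without Rn45s, over genes with at least 20 counts), so each library counted as 1 sample.

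With edgeR 4.0.16 in R 4.3.3, genes were kept by filterByExpr (minimum count 10, minimum total 15), totals were scaled by TMM, and group means over all 9 libraries were fitted with robust quasi-likelihood dispersions. Groups were compared by the quasi-likelihood F test with Benjamini-Hochberg adjustment over 11002 genes, and called at an adjusted p under 0.05. The biological coefficient of variation was 0.0955. SE is the absolute log2 fold change over the square root of F. A gene was called outside both single agents by the larger of its p-values where both differences had the same sign. Alternatives were other scalings, filters and count columns, limma-voom (limma 3.58.1), DESeq2 1.42.0, a replicate block and leaving out each library.

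Exon lengths and positions come from GENCODE M21. Protein sequences were not used here. The members and gene lists were chosen with earlier results of these data known. Named genes were the 6 members, up to 4 called members per list and comparison with the largest absolute change, the 5 nearest in pattern, neighbours within 0.2 Mb, Isg15 and Tnf. Fcgrt, Tyrobp and Trem2 were chosen after their values were seen.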

Additional observations from a re-analysis of the deposited data

How the results depend on the processing

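For the 6 genes, 20 differences were recomputed under 21 alternatives, and 397 of 418 values kept their direction and their side of the threshold. The exceptions were all of Fcgr4 and Fcer1g: 19 lost the call, 1 gained it, and Fcer1g turned to -0.24 for the combination against R848 with library totals alone. All differences of Fcgr1, Fcgr3, Fcgr2b and Syk kept direction and call under every alternative run. With library totals alone 6157 genes were called for the combination against R848 and 2084 for R848+IFN-α outside both single agents, instead of 3947 and 1116. The number of members called outside both single agents was 0 with upper-quartile factors, library totals alone, the DESeq2 Wald test, no low-count filter and unstranded counts, and ran from 0 to 1 when single libraries were left out. Same-numbered libraries did not deviate together (9 correlations from -0.118 to 0.086, none over 0.1), and 3 of 9 libraries correlated best with their own number. No pairing by number was thus seen, but so few libraries cannot exclude a shared culture or batch. The replicate block gave 3995, 3701 and 4147 calls, instead of 3947, 3652 and 4119, and 0 members outside both single agents.

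The ratios depend on gene length. The Fcgr2b share was 40.5%, 2.86% and 7.61% with R848, IFN-α and both per kb of exon union, and 9.13% and 22.5% in the groups with IFN-α per kb of the median coding transcript, a choice made after seeing the data. Fcer1g per activating receptor was 8.01, 0.649 and 1.31 per kb of exon union and 8.14, 0.75 and 1.56 per kb of transcript. Syk per activating receptor was 0.345, 0.00553 and 0.0353, and 0.498, 0.00906 and 0.0597. The order of the groups was the same under both lengths. Low counts limit Fcgr1 and Fcgr4 with R848, at 98 and 58 counts over the group.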
